A study of Mus musculus with 5 samples.

Results

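Genes of ribosome biogenesis, together with metabolic and chaperone genes known as responders to the transcription factor MYC, were examined in sorted mouse blood stem and progenitor cells. The list named 34 genes, and each was read from probe sets annotated with that symbol alone, taking the probe set with the highest mean over the 5 arrays. A value was obtained for 33 of the 34, out of 18193 genes measured in all. Phb, which encodes the mitochondrial scaffold protein prohibitin, was read only by probe sets annotated with several symbols, and no value is given for it.

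Expression was measured on 5 Affymetrix whole-genome mouse arrays, each carrying RNA from flow-sorted C57BL/6 bone marrow cells. Control samples (n = 3) came from mice with rtTA, the doxycycline-dependent transactivator that drives inducible transgenes, and the other samples (n = 2) from MSI2-inducible mice, in which expression of Musashi 2, a protein that binds RNA, can be switched on. The sample labels describe Sca1-positive, Kit-positive cells of low lineage marking (LSK), while the series text describes Sca1-negative, Kit-positive cells (LK), so the Sca1 gate is uncertain. The promoter of the transgene, induction by doxycycline, the age of the mice and any pooling of mice are not given in the sources used here. Nothing says that each array holds a different mouse, so p-values reflect only how far these samples scatter, part of which may be technical.

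Ribosome production begins in the nucleolus, where RNA polymerase I copies the ribosomal DNA into a long precursor RNA. Small nucleolar ribonucleoproteins (snoRNPs) guide chemical modification of this precursor, the small subunit processome cuts and folds its first part, and a separate set of factors assembles the large subunit. MYC, bound to its partner MAX at the DNA word CACGTG (the E-box), is known to raise transcription of many of these genes along with genes for polyamine and nucleotide synthesis, and blood stem cells are known for low protein synthesis compared with their dividing progeny.

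The promoters of the members were searched for CACGTG, which reads the same on both strands, in RefSeq windows of GRCm38.p6 that run from 250 bases before the gene start to 50 bases after it. A window was matched for 28 of the 34 members, and 8 of these (28.6%) held the word in at least 1 window, against 8.09% of all 27025 genes with a window. Counted by window, the shares were 28.1% of 32 member windows and 7.15% of all 32851. The member windows were richer in G and C, with a median of 59.7% against 52.7%. A stretch before the gene start is shown for 3 measured members. They hold the word within 150 bases before the start, in a stretch that lies in no other annotated gene. Utp18 had the largest difference between the groups, while Ran and Nme1 had small ones. Capitals mark the E-box, and each stretch runs 5′ to 3′ on the strand of its gene.
Utp18 (chr11:93885767-93885846, minus strand): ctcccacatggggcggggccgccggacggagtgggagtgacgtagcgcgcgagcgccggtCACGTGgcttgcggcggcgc
Nme1 (chr11:93968273-93968422, minus strand): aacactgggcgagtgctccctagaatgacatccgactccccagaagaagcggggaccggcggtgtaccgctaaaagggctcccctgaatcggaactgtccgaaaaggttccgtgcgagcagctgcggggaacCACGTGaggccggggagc
Ran (chr5:129020006-129020155, plus strand): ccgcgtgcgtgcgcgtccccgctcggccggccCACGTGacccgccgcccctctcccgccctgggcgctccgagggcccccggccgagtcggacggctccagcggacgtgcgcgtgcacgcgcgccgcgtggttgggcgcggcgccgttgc

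The word began 20 bases before the start of Utp18, 18 before Nme1 and 118 before Ran. It also lay 80 bases before 1 of the 2 annotated starts of Hspd1 and 232 before Phb, and within the first transcribed bases of Pes1, Wdr43 and Mybbp1a. The measured members with an E-box in a window had a median log2 difference between the groups of 0.06 (n = 7). Those with a window but no word in it had a median of 0.09 (n = 20). A word outside the windows was not counted, and a link between the word and the difference was not tested.

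No member passed the test between MSI2-inducible and control cells. Values are log2 intensities, differences are MSI2-inducible minus control, and genes were tested with limma, adjusted over all 18193 genes by the Benjamini-Hochberg method at 0.05. Of all genes, 0.0165% passed as higher and 0.0055% as lower, and 0 of 33 members passed in either direction, with a smallest limma adjusted p of 0.837. At an unadjusted limma p under 0.05, 1 member was higher and 0 were lower, against 2.87% and 2.77% of all genes. The median difference of the members was 0.11, and that of all genes 0.00. The member median was 0.06 without control replicate 2, 0.06 with the mean of probe sets and 0.05 over every probe set taken singly. The difference was above 0 for 21 members (63.6%) and below 0 for 12, against 50.4% above 0 among all genes. The sign can depend on the probe set. Of 19 members with several probe sets above the median of all probe sets, 9 had such probe sets in both directions. Without MSI2-inducible replicate 1 the median was 0.15 and 27 members lay above 0, and without replicate 2 it was 0.07 with 19 above 0, while over all genes 46.3% and 53.8% then lay above 0.

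**Figure D1:**
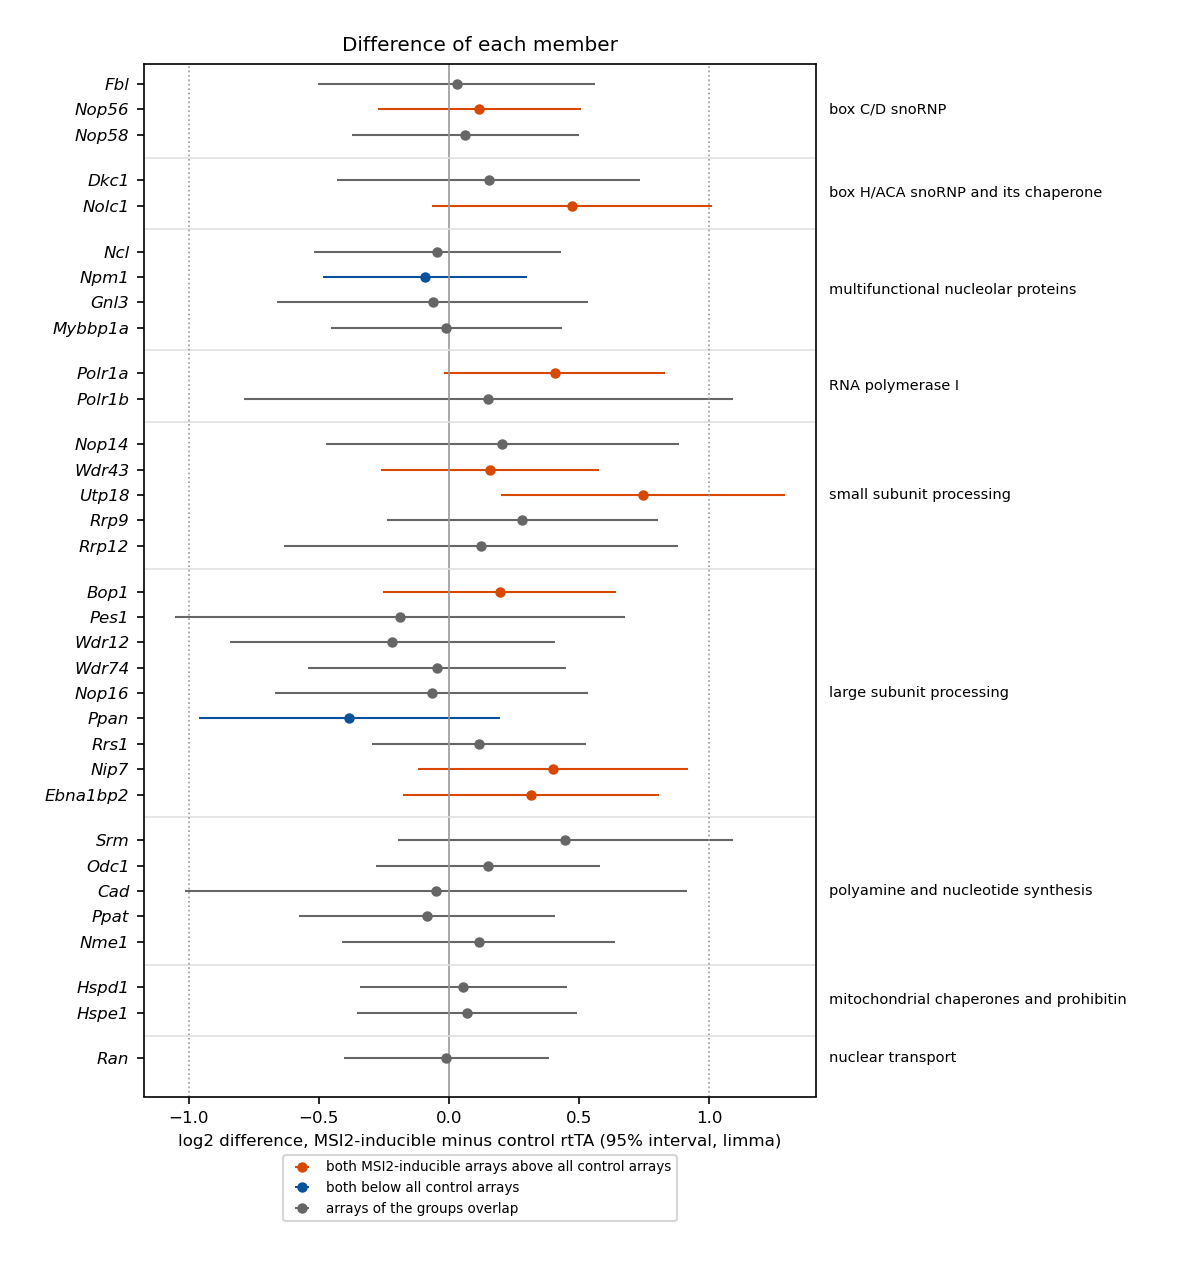
Log2 difference (MSI2-inducible minus control rtTA) of each of the 33 measured members, grouped by role, with its 95% interval from limma (n = 2 and n = 3 arrays); dotted lines mark a difference of 1 in each direction. The point estimates lie between -0.38 (Ppan) and 0.75 (Utp18), and the interval of Utp18 alone among the members does not include 0 before adjustment.

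On the brightest probe set of each gene, a 2-fold change lay outside the interval of most members. The 95% interval lay between -1 and 1, a 2-fold change either way, for 27 of the 33 members, with a median half-width of 0.52. The point estimate was smaller than 0.5 in size for 32 members. Other probe sets are not covered by these counts, and some differed by more, as for Odc1 (0.82), Rrs1 (0.72) and Nop16 (-0.77). The arrays are bulk samples, in which a change in the number of cells of a type and a change in RNA per cell cannot be told apart.

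Genes of small subunit processing had differences above 0 in all 5 measured members, with a median of 0.21. Utp18, a WD-repeat protein of the small subunit processome, whose E-box stretch is printed above, had log2 values of 8.17, 8.33 and 8.44 in the control arrays (replicates 1 to 3, the order kept throughout) and of 9.33 and 8.80 in the MSI2-inducible arrays (replicates 1 and 2). Both MSI2-inducible arrays were above every control array. The difference was 0.75 (SE 0.22, 95% interval 0.20 to 1.29), a ratio of 1.68, with an unadjusted limma p of 0.0156 and a limma adjusted p of 0.837. It ranged from 0.48 without MSI2-inducible replicate 1 to 1.01 without replicate 2. The second Utp18 probe set, at 3.29 to 4.35, was under the median of all probe sets (5.57), a level at which a difference is uncertain.

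The 4 other genes of that step differed less. Wdr43, which joins the early processome, lay at 10.32, 10.33 and 10.11 in control arrays and at 10.45 and 10.37 in MSI2-inducible arrays, with no overlap and a difference of 0.16; its second probe set differed by -0.04. Rrp9, a protein of the U3 snoRNP, lay at 6.95, 6.95 and 6.88 against 7.47 and 6.94, so that only MSI2-inducible replicate 1 was above the controls. Nop14, needed for small subunit maturation, showed the opposite split, at 9.21 in MSI2-inducible replicate 1 and 9.89 in replicate 2 against 9.05 to 9.50 in control arrays. Rrp12, an export and processing factor, differed by 0.12, less than its control SD of 0.44.

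**Figure D2:**
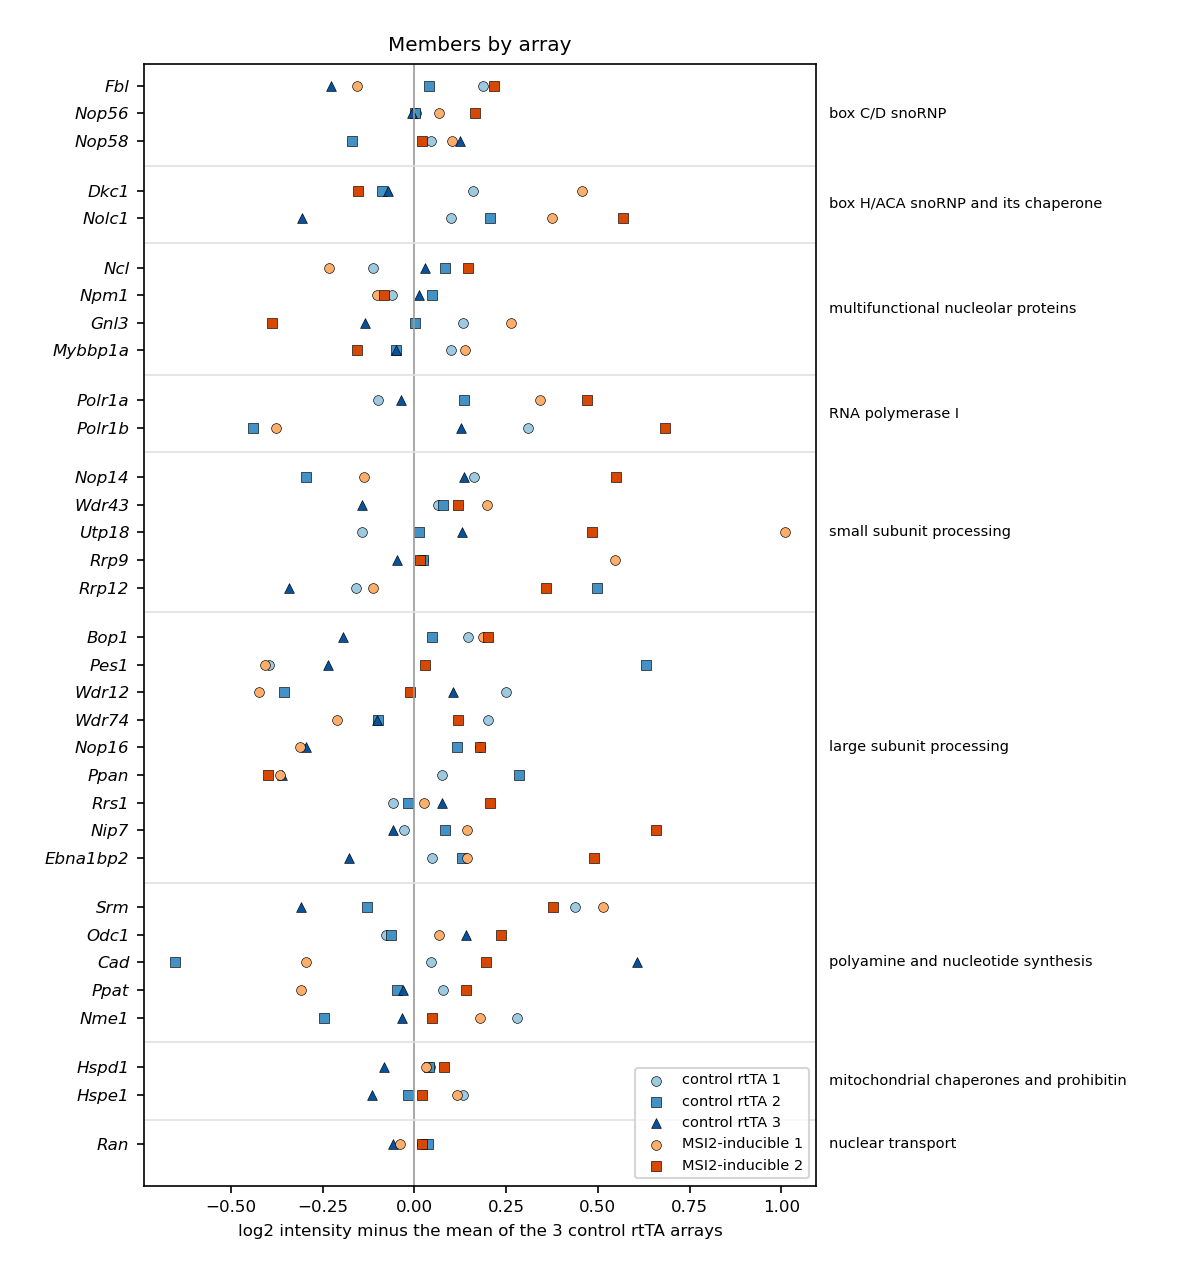
Log2 intensity of each of the 33 members on each array, as the distance from the mean of the 3 control rtTA arrays of that gene; circles, squares and the triangle are replicates 1, 2 and 3, blue for control and orange for MSI2-inducible. The 2 MSI2-inducible arrays are often far apart for the same gene, as for Polr1b (6.59 and 7.65) and Gnl3 (11.02 and 10.37).

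The RNA polymerase I subunits both had differences above 0. Polr1a, the largest catalytic subunit, lay at 8.44, 8.68 and 8.51 in control arrays and at 8.89 and 9.01 in MSI2-inducible arrays. The groups did not overlap, and the difference was 0.41 (SE 0.17, 95% interval -0.02 to 0.83, limma adjusted p 0.901). Of its other probe sets above the median of all probe sets, one differed by 0.44 and one by -0.12. Polr1b, the second largest subunit, lay at 7.28, 6.53 and 7.10 in control arrays and at 6.59 and 7.65 in MSI2-inducible arrays, so the MSI2-inducible arrays stood far apart, near both ends of the range.

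Among snoRNP genes, Nolc1, a nucleolar chaperone that binds both classes of these particles, had the largest difference. It lay at 10.69, 10.80 and 10.28 in control arrays and at 10.97 and 11.16 in MSI2-inducible arrays, which did not overlap. The difference was 0.47 (SE 0.22, 95% interval -0.06 to 1.01, limma adjusted p 0.911), and its other probe sets differed by 0.15 and 0.46. Dkc1, the pseudouridine synthase of the box H/ACA class, was high in one MSI2-inducible array and low in the other (11.56 and 10.95 against 11.01 to 11.26), and its 3 probe sets differed by 0.15, 0.06 and -0.08.

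The box C/D proteins, which carry out 2′-O-methylation, hardly differed. Nop56, a core scaffold, lay at 12.44, 12.44 and 12.43 in control arrays and at 12.50 and 12.60 in MSI2-inducible arrays, without overlap, a difference of 0.12. Nop58, its partner, differed by 0.06 with overlapping arrays. Fbl, the methyltransferase fibrillarin, differed by 0.03, and its second probe set by -0.11.

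The abundant multifunctional nucleolar proteins had small differences, from -0.09 to -0.01, on their brightest probe sets. Of the 4, Npm1 alone stayed below 0 under every alternative run. Mybbp1a turned to 0.01 with arrays shifted to one median and Ncl to 0.02 with the mean of probe sets. Without MSI2-inducible replicate 1 Ncl lay at 0.15, and without replicate 2 Gnl3 lay at 0.26 and Mybbp1a at 0.14. Without control replicate 1 Gnl3 lay at 0.00 and Mybbp1a at 0.04. Npm1, nucleophosmin, a nucleolar chaperone that is often mutated in myeloid leukaemia, lay at 13.68, 13.79 and 13.75 in control arrays and at 13.64 and 13.65 in MSI2-inducible arrays. Both MSI2-inducible arrays were lower, by a difference of -0.09 with a 95% interval of -0.48 to 0.30. Ncl, nucleolin, which binds the precursor RNA, lay at 12.54, 12.73 and 12.68 against 12.42 and 12.80, and its 5 probe sets differed by -0.05 to 0.15. Gnl3, the GTPase nucleostemin known from stem cells, differed by -0.06, and Mybbp1a, a repressor of ribosomal DNA transcription, by -0.01.

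Large subunit genes went both ways, with 4 of 9 above 0 and a median of -0.05. Nip7, a late processing factor, lay at 9.37, 9.48 and 9.34 in control arrays and at 9.54 and 10.06 in MSI2-inducible arrays, a difference of 0.40 (SE 0.21), but its second probe set differed by -0.48. Ebna1bp2, a nucleolar scaffold, lay at 10.96, 11.04 and 10.74 against 11.06 and 11.40, a difference of 0.32. In the first gene MSI2-inducible replicate 2 stood well above the rest, and in both genes replicate 1 was just above the highest control array.

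Ppan, an assembly factor of the large subunit, had the lowest difference of all members. It lay at 8.74, 8.95 and 8.30 in control arrays and at 8.29 and 8.26 in MSI2-inducible arrays, a difference of -0.38 (SE 0.24, limma adjusted p 0.914). Both MSI2-inducible arrays were below the controls, but control replicate 3 was within 0.01 of the nearer one. Bop1, Pes1 and Wdr12, which form the PeBoW complex, differed by 0.19, -0.19 and -0.22. The 3 partners thus showed no common direction, and the MSI2-inducible arrays overlapped the controls for Pes1 and Wdr12. Wdr74 (-0.05) and Nop16 (-0.07) differed little, although the second Nop16 probe set differed by -0.77. Rrs1, which brings the 5S particle to the large subunit, differed by 0.12 on its brightest probe set and by 0.72 on the other, where control arrays lay at 9.48, 9.50 and 9.11 and MSI2-inducible arrays at 9.81 and 10.37.

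Both polyamine synthesis genes had differences above 0, and nucleotide synthesis genes lay near 0 on their brightest probe sets. Srm, spermidine synthase, lay at 8.92, 8.35 and 8.17 in control arrays and at 8.99 and 8.86 in MSI2-inducible arrays, a difference of 0.45 (SE 0.26, limma adjusted p 0.912). Control replicate 1 lay between the MSI2-inducible arrays, so the groups overlapped. Odc1, ornithine decarboxylase, the rate-limiting enzyme of the pathway, differed by 0.15 on its brightest probe set, with control arrays at 11.99, 12.01 and 12.21 and MSI2-inducible arrays at 12.14 and 12.30. Its second probe set differed by 0.31 and the remaining one by 0.82, the latter from 9.69, 9.65 and 9.22 to 10.40 and 10.26. All 3 Odc1 probe sets differed in the same direction, but none passed limma with every probe set tested on its own (adjusted p 0.942, 0.892 and 0.706).

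Cad, the enzyme that starts pyrimidine synthesis, was the most variable member in control arrays, at 8.73, 8.03 and 9.29, and the MSI2-inducible arrays (8.39 and 8.88) lay inside that range. The brightest Cad probe set differed by -0.05 and the other probe sets of this gene by 0.15 and 0.19. Ppat, the first committed step of purine synthesis, differed by -0.08, and its second probe set by 0.04. Nme1, a nucleoside diphosphate kinase, differed by 0.11. The mitochondrial chaperonins Hspd1 (0.06) and Hspe1 (0.07), which share a promoter region, and the nuclear transport GTPase Ran (-0.01) did not differ by more than their control SD. Ran turned to 0.01 with arrays shifted to one median. Its interval of -0.40 to 0.38 and that of Hspd1, -0.34 to 0.45, were among the narrower ones.

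Values of the groups were fully separate for 10 members, with 8 of 33 (24.2%) higher in both MSI2-inducible arrays against 9.27% of all genes, and 2 (6.06%) lower against 9.39%. The 8 were Nop56, Nolc1, Polr1a, Wdr43, Utp18, Bop1, Nip7 and Ebna1bp2, and the 2 were Npm1 and Ppan. Taken singly, MSI2-inducible replicate 2 was above all control arrays for 16 members, against 21.1% of all genes, and replicate 1 for 13, against 31.9%. As shares of the members these were 48.5% and 39.4%. Replicate 1 was below all control arrays for 8 members (25.6% of all genes) and replicate 2 for 5 (26.4% of all genes).

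MSI2-inducible replicate 2 and control replicate 3 stood at the ends for many members. The highest of the 5 values fell in MSI2-inducible replicate 2 for 14 members (42.4%), against 15.3% of all genes and 21.7% of the genes at least as bright as the dimmest member. The lowest value fell in control replicate 3 for 13 members (39.4%), against 20.8% and 15.8%. As medians over the members of the distance from the control mean, control replicates 1, 2 and 3 lay at 0.06, 0.01 and -0.06, and MSI2-inducible replicates 1 and 2 at 0.07 and 0.15. MSI2-inducible replicate 1 lay within 0.01 of control replicate 1, and replicate 2 was above every other array.

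**Figure D3:**
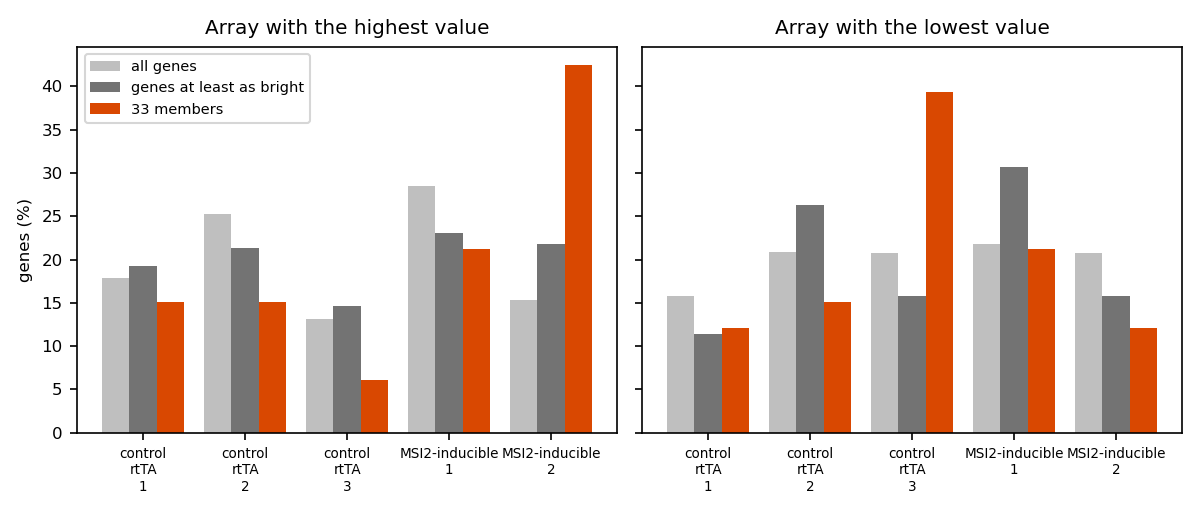
Share of genes (%) whose highest (left) or lowest (right) value falls on each of the 5 arrays, for all 18193 genes, for the genes at least as bright as the dimmest member, and for the 33 members. Among the members, 42.4% peak in MSI2-inducible replicate 2 and 39.4% are lowest in control replicate 3.

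The 2 MSI2-inducible arrays were further apart than the group means, a comparison in which single arrays also carry more noise than means. The median size of the difference between the 2 MSI2-inducible arrays was 0.33 over the members (0.30 over all genes), against 0.12 for the difference between groups (0.18 over all genes). Replicate 2 was above replicate 1 for 22 of 33 members, against 42.2% of all genes and 54.7% of the genes at least as bright. For large subunit members it was above in 8 of 9.

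The 2 MSI2-inducible arrays also differed in markers of blood lineages, several lists of which were highest in replicate 1. Mature neutrophil markers (10 of 12 measured) were highest in MSI2-inducible replicate 1 for all 10, and their summed intensity was 62744 there and 11789 in replicate 2, against 14258 to 26683 in control arrays. The erythroid sum (10 of 12 measured) was 5551 and 2940 against 2426 to 3111. The monocyte and macrophage sum was 12667 and 6121 against 6456 to 7246. The B cell sum was 4750 and 1424 against 1312 to 2312, from a list that also holds genes of B cell precursors such as Vpreb1. The sums of the other lists were not above the control range in replicate 1. The megakaryocyte sum was 1890 and 2355 against 2335 to 2931, with replicate 2 above replicate 1 for 10 of 11 genes. The T and NK cell sum (857 and 727 against 673 to 1150) and the mast cell, basophil and eosinophil sum (1602 and 558 against 519 to 1842) lay inside the control range. In these lists replicate 2 was above replicate 1 for 2 of 9 and 2 of 11 genes. Stem and progenitor markers (10 of 12 measured) summed to 9401 and 12913 against 11677 to 12476, and their lowest value fell in replicate 1 for 7 of 10. Replicate 2 was above replicate 1 for 9 of 10. The difference between groups was below 0 for 8 of these genes and above 0 for 2. Mecom (9.13 and 9.52 against 9.84 to 9.98) and Slamf1 (5.57 and 7.22 against 7.36 to 7.99) lay below all controls in both arrays. These 2 of 10 genes compare with 9.39% of all genes, and 0 of 10 lay above all controls in both arrays (9.27%). Neither passed limma (adjusted p 0.870 and 0.883). Kit, the receptor used in the sort, lay at 8.80 and 9.50 against 9.19 to 9.66, while Ly6a, which encodes Sca1, had no value here. No marker was at 0, though 7 of 9 T and NK markers and 6 of 11 B cell markers were under the median of all probe sets on every array. The part of these cells in the member values was not tested.

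**Figure D4:**
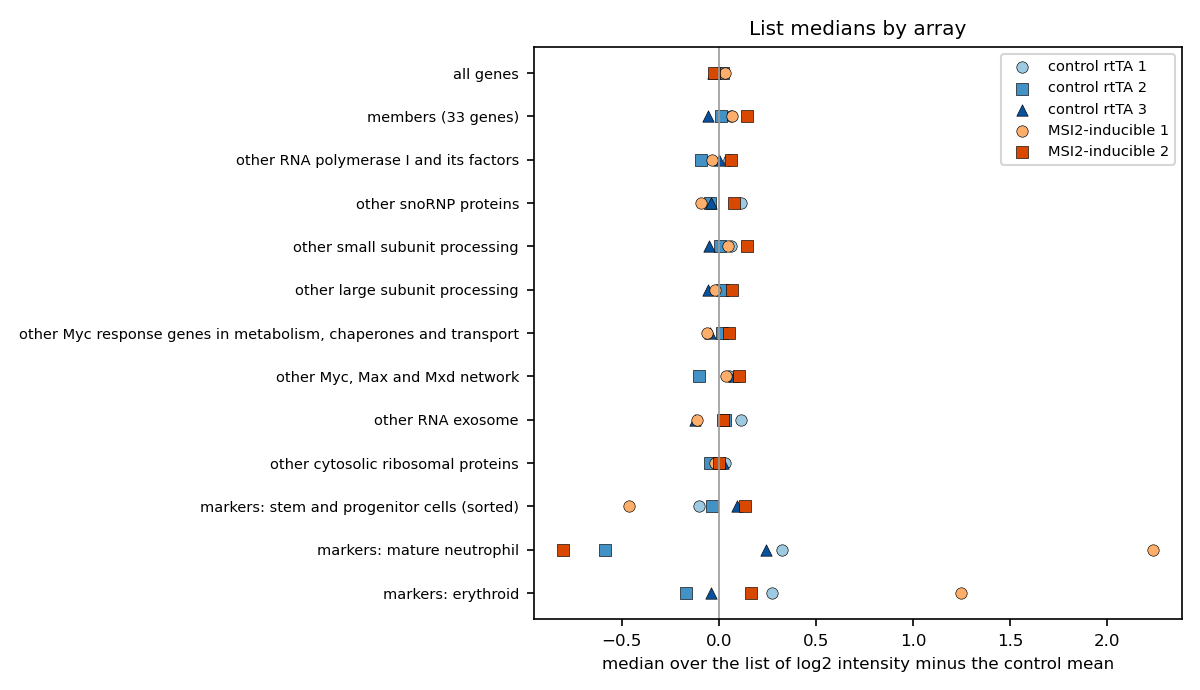
Median over each gene list of the log2 distance from the control rtTA mean, for each of the 5 arrays (symbols as labelled). The members span -0.06 to 0.15, whereas mature neutrophil markers span -0.80 to 2.23, with the MSI2-inducible arrays at the ends.

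Other genes of the same pathways were read from 8 further lists, and 0 genes of any list passed limma in either direction (background 0.0165% and 0.0055%). At an unadjusted limma p under 0.05, 2 genes were higher and 1 lower among other small subunit genes, and 4 were higher and 1 lower among other Myc response genes. By the same measure 1 was higher and 0 lower among other large subunit genes, 1 was higher and 1 lower in the Myc network, and 0 were either among other RNA polymerase I, snoRNP and exosome genes. Of all genes, 2.87% were higher and 2.77% lower at that p. Other small subunit processing genes had a median of 0.07, with 33 of 50 above 0. The highest of them was Utp23 (1.03), at 9.09, 9.16 and 9.28 in control arrays and 10.49 and 9.93 in MSI2-inducible arrays, and the lowest Tsr3 (-0.84). Both are rRNA processing factors, and their limma adjusted p was 0.584 and 0.706. As in the members, MSI2-inducible replicate 2 had the higher list median, 0.15 against 0.05 for replicate 1. The same order held in each of the further lists, as in other large subunit genes (0.07 against -0.02). It also held in the genes at least as bright as the dimmest member (0.02 against -0.03). Over all genes replicate 2 was the lower one (-0.03 against 0.03).

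The remaining lists lay close to 0. Medians were 0.04 for other RNA polymerase I genes (9 of 15 above 0, from Ttf1 at -0.70 to Tcof1 at 0.35) and 0.03 for other snoRNP genes (8 of 12, from Shq1 at -0.49 to Pih1d1 at 0.36). They were 0.01 for other large subunit genes (27 of 52, from Nol12 at -0.50 to Wdr55 at 0.67) and 0.01 for other Myc response genes in metabolism, chaperones and transport (32 of 62, from Tert at -0.61 to Mthfd2 at 0.79). RNA exosome genes had a median of -0.00 (6 of 13 above 0, from Exosc5 at -0.33 to Exosc10 at 0.25). Ribosomal protein genes had a median of 0.00 (23 of 44, from Rps25 at -1.68 to Rpl39 at 0.29), with only 44 of 79 listed genes read by probe sets of 1 symbol. At an unadjusted limma p under 0.05, 3 of the 44 ribosomal protein genes were lower and 0 higher, against 2.77% and 2.87% of all genes. E-box shares in the windows of these lists ran from 0% for snoRNP genes to 29.3% for small subunit genes, with 24.6% for the Myc response list.

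Myc itself lay at 12.16, 11.99 and 12.05 in control arrays and at 12.16 and 12.06 in MSI2-inducible arrays, a difference of 0.05, no more than the control SD of 0.08. Of the Myc, Max and Mxd network, 15 of 16 listed genes were measured, 9 above 0 and 6 below. Max, the partner of MYC, differed by 0.60 (8.23, 7.57 and 8.44 against 8.74 and 8.62), and Mxd4, which competes for MAX, by -0.60 (11.56, 11.32 and 11.49 against 10.95 and 10.76). Neither overlapped between groups, and neither passed limma (adjusted p 0.911 and 0.835). Both MSI2-inducible arrays were above all controls for 4 of the 15 genes (26.7%, against 9.27% of all genes), namely Max, Mycl, Mlxip and Mxd1. They were below for Mxd4 alone (6.67%, against 9.39%). Mycn, the close relative of Myc, differed by -0.60 with overlapping arrays, Mycl by 0.47, Mlxip by 0.38, Mxd3 by 0.37, Mxd1 by 0.35, Mlx by 0.24, Mga by 0.21 and Trrap by 0.05. Zbtb17 (-0.56), Mnt (-0.44), Wdr5 (-0.19) and Mxi1 (-0.18) lay below 0, and Mycl was under the median of all probe sets on every array.

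Over the whole series, 3 genes were higher and 1 lower past limma's test, and 0 were higher or lower with any 1 array left out or with the replicate block. Array medians lay between 46.4 and 48.3 intensity units. The 3′ minus 5′ log2 signal of Gapdh, a sign of RNA integrity, differed by -0.16 between groups (exact permutation p = 0.4, two-sided). That of beta-actin differed by 0.03 (exact permutation p = 0.8), where 0.1 is the smallest p that the design allows. The signal itself was high for Gapdh, at 2.14 to 2.60 over the arrays, and near 0 for beta-actin, at -0.15 to 0.01. The 2 controls thus gave unlike readings of RNA integrity on every array.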

How the data were processed

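The authors deposited 1 intensity per probe set and array, linear and comparable between arrays; RMA, affy and R 2.11.0 are named in the submitters' processing notes. These intensities were put on the log2 scale without a pseudocount and not normalized again. Of 45101 probe sets, 34945 that were not controls carried 1 symbol (34741 of them updated by Entrez ID through RefSeq), while 932 carried several and 9211 none here; the 64 control probe sets, most of them among those 9211, stood for no gene. The brightest probe set stood for its gene. limma 3.58.1 (R 4.3.3) fitted group as the only term (lmFit, eBayes, two-sided, Benjamini-Hochberg over all genes). It was first tested on simulated data with changes larger than any member difference, so detection at the size of the members was not tested. The number of arrays limits the precision. For RNA integrity all 10 splits of the arrays were enumerated in an exact permutation test.

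The members and lists were chosen with earlier results of these data known, so lists are described by counts and medians without a test. The naming rule took every member, the Myc network, the highest and lowest gene of each other list and up to 3 markers per list. Markers are given here mainly as list sums. Kit, Ly6a, Ccr2, Ccl5, Pf4, Mecom, Slamf1 and single probe sets were picked after their values were seen. Alternatives changed how a gene is read, the filter on low values, the scaling, the variance model, array weights, pairing by replicate number, the arrays used and the threshold. Promoter windows came from RefSeq (GRCm38.p6).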

Additional observations from a re-analysis of the deposited data

How the results depend on the processing

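No member passed limma's test under any alternative. Genes past the test numbered 3 higher and 1 lower; 1 was higher with array weights, and the lower ones numbered 2 without dim genes, 2 after a further quantile normalization, 3 with arrays shifted to one median and 3 at a threshold of 0.10. Leaving out any array gave 0 to 0 genes higher and 0 to 0 lower (a lone MSI2-inducible array was assumed to vary like the controls). The replicate block gave 0 higher and 0 lower, and the member median was 0.097 with 20 above 0; only 2 pairs exist, nothing in the labels pairs them, and same-numbered deviations correlated at 0.134 and 0.099. Taking each probe set singly, the member median was 0.046 over 73 probe sets, 45 above 0, and the median in MSI2-inducible replicate 2 was 0.048; it was 0.080 with the mean of probe sets. Left-out arrays gave member medians of 0.060 to 0.146 and 19 to 27 members above 0. Counts of members with all MSI2-inducible arrays above the controls were 13 to 16, and below 5 to 8, with an MSI2-inducible array left out, an alternative chosen after seeing the data; fewer arrays make non-overlap easier.

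Of 462 member values under alternatives, 422 kept their direction and 40 turned, in 18 members. Another 15 members turned in none, and the cause was not tested. These counts overstate stability. Testing probe sets singly, leaving out dim genes and changing the variance model left each member's difference unchanged, so no member could turn there. The replicate block gave each member the same difference as leaving out control replicate 3, so those turns are counted again. With the mean of probe sets, which takes in dim ones, turned Fbl (-0.039), Ncl (0.021), Bop1 (-0.243), Pes1 (0.052), Nip7 (-0.038) and Cad (0.097). Without _x_at and _s_at probe sets turned Fbl (-0.108) and Ppat (0.037), with arrays shifted Mybbp1a (0.012) and Ran (0.012), and with the replicate block Fbl (-0.084), Rrp12 (-0.047) and Cad (0.254). Left-out arrays turned Fbl (-0.156 to 0.216), Nop58 (-0.022 to 0.124), Dkc1 (-0.153 to 0.457), Ncl (-0.234 to 0.146), Gnl3 (-0.388 to 0.263), Mybbp1a (-0.157 to 0.138), Polr1b (-0.378 to 0.683), Nop14 (-0.137 to 0.549), Rrp12 (-0.112 to 0.373), Pes1 (-0.408 to 0.127), Wdr74 (-0.211 to 0.120), Nop16 (-0.311 to 0.178), Cad (-0.377 to 0.254), Ppat (-0.308 to 0.141), Nme1 (-0.0089 to 0.254) and Ran (-0.040 to 0.020).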
